A study of Rattus norvegicus with 6 samples.

Results

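The sites described here are the REST-bound regions whose annotation places them at a promoter-TSS, that is, at the transcription start site (TSS) of a gene or shortly before it. They were taken from the REST ChIP-seq peak lists of HCN cells by this label alone, in the annotation that accompanies the lists. In iQNP conditions 262 of 1775 sites had the label, which is 14.8% (95% Wilson interval, 13.2 to 16.5), and in TAP conditions 64 of 778 did, which is 8.23% (6.49 to 10.4). The intervals cover counting error only. Together they make 264 distinct sites, since all 64 TAP sites had an iQNP site with its centre within 50 bp and in 62 pairs both members had the label.

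HCN cells are neural stem cells from the hippocampus of adult Fisher 344 rats, kept as a cloned line. Cells in TAP conditions proliferated with FGF2 at 20 ng/ml. Cells in iQNP conditions received the same FGF2 and BMP4 at 50 ng/ml, which brings quiescence. REST was precipitated once per condition with a commercial antibody and once with the homemade antibodies REST14 and REST17 mixed, next to 1 input library, so that the 2 libraries of a condition are not replicates of one antibody. A site had to be called with both antibodies to be listed, and tags in TAP at sites without a TAP call were not analysed here. Library depths, as total over normalized tags, were between 25.2 and 29.8 in units of 1000000 tags. Tags below are normalized to 10000000 tags per library unless total tags are named, and a site's level is the mean of both antibodies.

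REST is a zinc finger repressor that recognises the repressor element 1 (RE1) and recruits corepressor complexes such as CoREST and Sin3A. It is best known for keeping neuronal genes silent in cells that are not neurons and in progenitors. Promoters of genes that every cell uses, such as those for ribosomal proteins, mostly lie in CpG islands.

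Promoter sequences are shown first, for the genes on which the results turn. Of the 262 sites in iQNP, 219 (83.6%) belong to a gene with a promoter in the RefSeq table of the GRCr8 assembly, from 250 bases before to 50 bases after each start. The sites themselves are on rn4, another build, so that a promoter was joined to a site by the annotated transcript or, failing that, by the gene's identifier. The RE1 was searched on both strands as TTCAGCACC, 2 free bases and GGACAGCNC, with up to 3 mismatches over its 17 set letters. It was found for 12 of the 219 genes (5.48%; 3.16 to 9.33), against 0.273% of all 27457 reference genes. By de novo search in the bound sites near a TSS, the study reported the REST motif at most of them in both conditions. The search here reads set letters with a fixed gap in a promoter window and not the site itself. A gene without a match may therefore still have an RE1 at its site. The sequences below show the RE1 match at 6 genes with a site in both conditions. Each is read along the RE1, with the matching letters in capitals, and is given with its position on GRCr8 and the strand of the printed letters.
Vgf (chr12:25277016-25277045, plus strand): ccggcTTCAGCACgctGGACAGCgCccgcg
Hrh3 (chr3:187574340-187574369, plus strand): gcgcgggCAGCACCacGGACAGCgCcgcgt
Rph3a (chr12:41203313-41203342, minus strand): tggcagTCAGtACCacGGACAGCaCcagga
Vwc2l (chr9:79702891-79702920, minus strand): aattccTCAGCACCacGGACAGCgCcaaca
Cartpt (chr2:32991201-32991230, minus strand): ggaagTcCAGCACCatGGAgAGCtCccgcc
Fam163b (chr3:30864609-30864638, minus strand): ccagcgTCAGCACCagGGACAGttCctcgc

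These genes are mostly neuronal. Vgf encodes a secreted neuropeptide precursor, Hrh3 a presynaptic histamine receptor, Rph3a a synaptic vesicle protein that binds Rab3, and Cartpt the CART peptide. The next sequences show the RE1 match at 4 of the 5 genes that had one and whose site was called in iQNP alone.
Scamp5 (chr8:66768100-66768129, minus strand): gaacaTctAGCACCctGGACAGCtCctgca
Ttc9b (chr1:92081038-92081067, minus strand): tgagcaTCAGCACCggGGACAGCgCgccgc
Celsr3 (chr8:118409012-118409041, plus strand): ctccaTTCAGCACCgtGGgCAGCaCttctg
Lhfpl5 (chr20:6633974-6634003, minus strand): cgcgtTTCAGCACCgcGGcCAGCgCcaggg

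The other letters that marked these promoters were CTCGCGAG, the core of a palindromic element known from CpG island promoters of housekeeping genes which reads the same on both strands. No RE1 letters overlap it. These letters are the core of the GFX motif, which the study found by de novo search at its targets unique to iQNP. They were thus known from these same peaks, so that the shares below describe the promoters and test nothing. CTCGCGAG was held by 66 of the 219 genes (30.1%; 24.4 to 36.5), against 0.849% of all reference genes and 1.15% of the protein-coding ones. They are 28.3% of the 233 reference genes that hold CTCGCGAG in this window, while the 219 genes are 0.798% of the reference genes. The sequences below show it at iQNP-alone promoters with many tags, at Banp, and at those genes discussed by the study that hold it, in capitals and along the gene's strand.
Rbm39 (chr3:165156315-165156344, minus strand): ccgggcagtttCTCGCGAGagcccgtgctg
Mdh2 (chr12:26543872-26543901, minus strand): gccgagcctgtCTCGCGAGatttggtgccg
Atp5f1 (chr2:196123841-196123870, plus strand): tagacacaactCTCGCGAGatgtagagcga
Scamp5 (chr8:66768054-66768083, minus strand): gtgccttccttCTCGCGAGcactagtggaa
Psmd5 (chr3:38548514-38548543, minus strand): ctctctcagatCTCGCGAGactccgggacg
Mapk14 (chr20:6751202-6751231, plus strand): gtgtctctcttCTCGCGAGatcttcccgtc
Mad1l1 (chr12:19434719-19434748, plus strand): ttttctcagatCTCGCGAGaccctcgcgga
Rps28 (chr7:15311375-15311404, plus strand): tcacttccgctCTCGCGAGaccgcacgcag
Banp (chr19:66916465-66916494, plus strand): ctgctgcttctCTCGCGAGgacggacgcca
Mms22l (chr5:42994308-42994337, plus strand): ttcattgaggaCTCGCGAGagggcggtgcc
Npm1 (chr10:18255778-18255807, minus strand): ctagaatggatCTCGCGAGatctcctgcgg
Rps6 (chr5:106420598-106420627, minus strand): ctcgggctattCTCGCGAGaacttagagtg
Rpl4 (chr8:73566227-73566256, plus strand): actCTCGCGAGagttttaacgagttacgaa

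Rbm39 encodes a splicing factor, Mdh2 the malate dehydrogenase of mitochondria, Atp5f1 a subunit of ATP synthase, Psmd5 a proteasome assembly chaperone, Mapk14 the kinase p38 alpha, and Mad1l1 a protein of the spindle checkpoint. Banp encodes a nuclear protein known to bind this element. Several promoters held it more than once: 12 of the 66 genes had 2 or more copies, against 19 of the 233 reference genes that hold it. The 233 include the 66, and the 19 include the 12. A match says only that the letters are there and not that REST or another factor sits on them. By ChIP-qPCR the study reported REST binding at its selected targets, among them Npm1, Rps6, Rpl4 and Mms22l. It also reported less binding at some of its targets after REST knockdown.

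The genes with a site in both conditions were mostly neuronal, and those with a site in iQNP alone seldom were. Of the 63 iQNP sites with a TAP site 43 belonged to neuronal genes, and of the 199 without one 14 did, while 87 belonged to genes of general cell functions. Of the 262 iQNP promoter-TSS sites, 63 had a TAP site (24.0%; 19.3 to 29.6), against 42.6% of all iQNP sites and 693 of the 1513 with another label (45.8%; 43.3 to 48.3). The genes were sorted by textbook function into 6 neuronal groups of 57 sites, 8 groups of general cell functions of 88 sites, and 117 sites of genes in neither. A TAP site was present at 43 of the 57 neuronal sites (75.4%; 62.9 to 84.8), at 1 of the 88 general sites (1.14%; 0.201 to 6.16) and at 19 of the 117 others (16.2%; 10.6 to 24.0). The groups were drawn up with these results known, so that these shares describe the sites and test nothing.

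**Figure D1:**
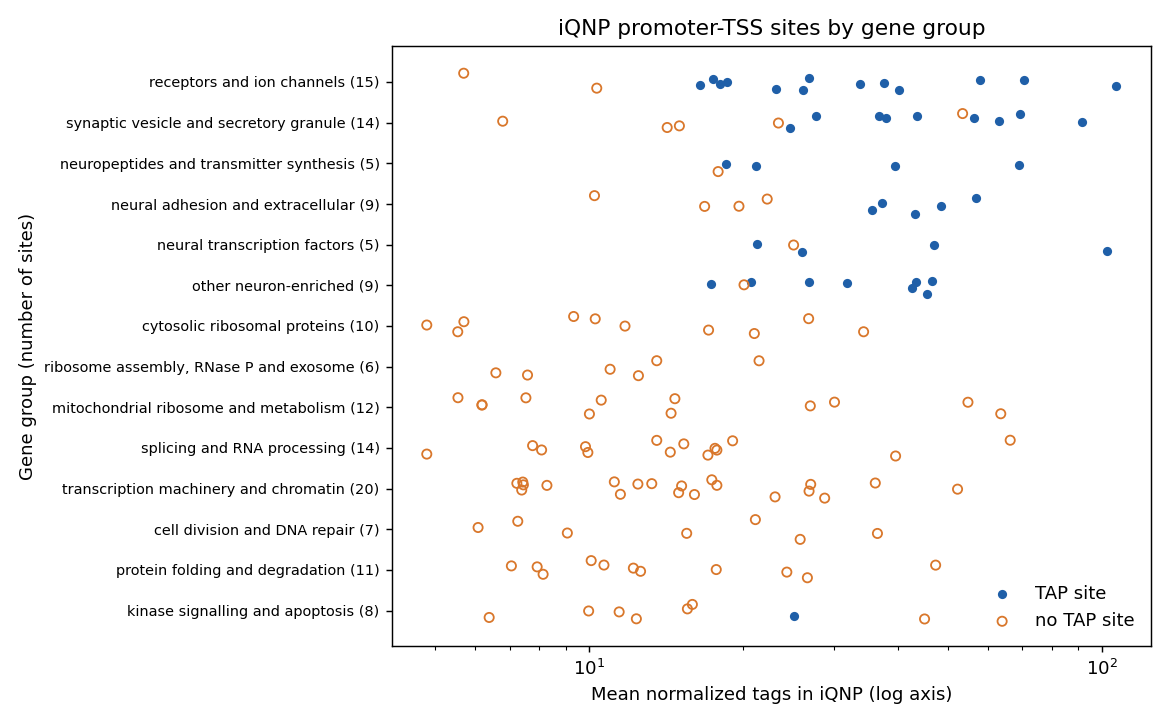
iQNP promoter-TSS sites by gene group. Each point is 1 site, placed by its mean normalized tags of both antibodies on a log axis, filled where a TAP site was present and open where it was not. The neuronal groups, the upper 6 rows, hold 43 filled points, and of the general groups below them only kinase signalling holds 1.

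Receptors and ion channels made up 15 of the neuronal sites, and 13 had a TAP site. The one with the most tags was Glra1, the alpha 1 subunit of the glycine receptor, on chromosome 10 from 41021754 to 41021809 (rn4), 15 bp before the TSS. Its iQNP tags were 135.2 for the commercial antibody and 77.9 for the homemade mix, an order kept below, and its TAP tags 68.4 and 44.1. Both iQNP libraries were above both TAP libraries. Hrh3, 99 bp before its TSS, had 86.2 and 54.7 tags in iQNP and 38.1 and 29.8 in TAP, again with no overlap. The members without a TAP site were Trpm2, a cation channel, with 5.68 and 5.71 tags, and Kcnk3, a leak potassium channel, with 10.6 and 10.1. The group also held Gria2, a glutamate receptor subunit, Glra3, Chrm4, Htr5a, Gpr19, Gpr158, Kcns2, Kcnh6, Kcnk12, Prlhr and Rxfp3.

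Genes of synaptic vesicles and secretory granules made up 14 sites, 9 of them with a TAP site, and had a median of 37.4 tags. Vgf, on chromosome 12 from 20903268 to 20903335 and 2 bp before its TSS, had 103.9 and 78.9 tags in iQNP and 63.0 and 51.6 in TAP. Those without a TAP site were Scamp5, Rab3c, Synj1, Pclo, a scaffold of the presynaptic active zone, and Syp, the vesicle protein synaptophysin. Syp had the fewest tags of the group, 8.87 and 4.70. Scamp5, which encodes a secretory carrier membrane protein, had the most of the neuronal sites without a TAP site, with 48.2 and 58.8.

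Neuropeptides and transmitter synthesis had 5 sites, and all but Vip, the vasoactive intestinal peptide, had a TAP site. Tph2, the enzyme of serotonin synthesis in neurons, had the most tags, 83.4 and 54.7 in iQNP and 39.7 and 28.6 in TAP. Neural adhesion and extracellular proteins had 9 sites and 5 TAP sites, from Sez6l2 at a mean of 56.8 tags to Nell2 at 10.2. Of 5 neural transcription factors, Scrt1, Scrt2, Gsx1 and Bsx had a TAP site and Neurod4 did not. Scrt1, a zinc finger repressor of neurons, on chromosome 7 from 114573058 to 114573140, had 131.3 and 73.5 tags in iQNP and 88.7 and 69.9 in TAP. With each antibody its tags were higher in iQNP, although the homemade antibodies in iQNP gave fewer than the commercial antibody in TAP. Other neuron-enriched genes had 9 sites, from Celf6 at 46.7 tags to Trim9 at 17.3, and all but Celf3 had a TAP site. They included Actl6b, a neuronal subunit of chromatin remodelling complexes, Nefm, a neurofilament, and Stmn3.

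The only site annotated to a microRNA was that of Mir132, a microRNA known to respond to neuronal activity, 111 bp before its start. Its mature products, with bases 2 to 8 (the seed) in capitals, are shown since this is the single gene annotated as non-coding among the sites.
rno-miR-132-3p: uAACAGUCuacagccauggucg
rno-miR-132-5p: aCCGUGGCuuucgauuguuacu
The 3p product lies at chr10:60522091-60522112 on the plus strand of GRCr8. The site had 34.1 and 19.5 tags in iQNP and 13.6 and 11.1 in TAP, so that both iQNP libraries were higher.

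The general groups had sites in iQNP and almost none in TAP. Cytosolic ribosomal proteins, the structural proteins of the translating ribosome, had 10 sites with a median of 11.02 tags. Rps28 had the most, 33.7 and 34.9, and Rpl4 the fewest, 4.61 and 5.04. Among the others were Rpl10a, Rpl26, Rpl27a, Rps19, Rps3a, Rps6 and Rps7. Rps6, a protein of the small subunit that is phosphorylated downstream of mTOR, had 8.16 and 12.4 tags 72 bp before its TSS.

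Genes of ribosome assembly, RNase P and the exosome had 6 sites, from Rpp38 at a mean of 21.4 tags to Dis3 at 6.58. Npm1, a nucleolar protein needed for ribosome assembly, had 10.3 and 16.8 tags 48 bp before its TSS. Mitochondrial ribosome and metabolism genes had 12 sites. Mdh2 stood highest among them with 52.5 and 74.5 tags, followed by Atp5f1 with 47.5 and 62.1, and Mterf was lowest at a mean of 5.55.

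Splicing and RNA processing had 14 sites, from Rbm39 with 61.0 and 71.5 tags to Cdc5l with 4.61 and 5.04. Transcription machinery and chromatin was the largest general group with 20 sites, from Cdk12, a kinase of elongating RNA polymerase II, at 52.3 to Ell, an elongation factor, at 7.23. It held Supt5h, Med1, Med22, Polr2d and Ccnt1 beside the transcription factors Atf2, Atf4 and Atf7. Protein folding and degradation had 11 sites, from Psmd5 at 47.4 to Rnf4 at 7.06.

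Cell division and DNA repair had 7 sites, from Mad1l1 at 36.5 to Kin at 6.08. Cdc20, the activator of the anaphase-promoting complex, had 6.74 and 11.4 tags, and Mms22l, which acts in repair of stalled replication forks, had 14.2 and 16.8. Kinase signalling and apoptosis had 8 sites, from Mapk14 with 35.8 and 54.4 to Dffa with 6.39 and 6.38. The only general gene with a TAP site was Mapk11, the kinase p38 beta, whose site lay 673 bp before its TSS. It had 27.7 and 22.5 tags in iQNP and 12.4 and 7.94 in TAP. The other 7 general groups, with 80 sites, are by this choice those without a TAP site, so their 0 sets no limit on a share.

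Among genes in no group, the most tags without a TAP site belonged to LOC687565, on chromosome 12 from 33819786 to 33819851, with 70.2 and 84.9. The site with the most tags and a TAP site in this set belonged to NM_001277394, which has no gene name in the annotation, with 82.7 and 50 in iQNP and 54.1 and 35.3 in TAP. The site of Wdr45l, with a mean of 5.03 tags, had the fewest after Rpl4 and Cdc5l.

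Sites without a TAP site had fewer tags. In iQNP the median was 35.6 tags over the 63 with a TAP site and 12.6 over the 199 without. The log2 difference was 1.50, with 1.76 for the commercial antibody and 1.12 for the homemade mix. Up to 12 tags, 0 of 89 promoter-TSS sites had a TAP site, which allows a share of up to 3.37%, against 13 of 468 sites with other labels (2.78%). Between 12 and 20 tags the shares were 7 of 71 (9.86%; 4.86 to 18.98) and 135 of 360 (37.5%; 32.7 to 42.6). Between 20 and 30 tags they were 17 of 44 (38.6%; 25.7 to 53.4) and 252 of 353 (71.4%; 66.5 to 75.9). Between 30 and 50 tags they were 26 of 39 (66.7%; 51.0 to 79.4) and 208 of 237 (87.8%; 83.0 to 91.3). Above 50 tags they were 13 of 19 (68.4%; 46.0 to 84.6) and 85 of 95 (89.5%; 81.7 to 94.2), where the intervals overlap. The promoter-TSS share was the lower one in every class over 8 tags, but these classes are wide and the part of tag level in the difference was not tested.

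**Figure D2:**
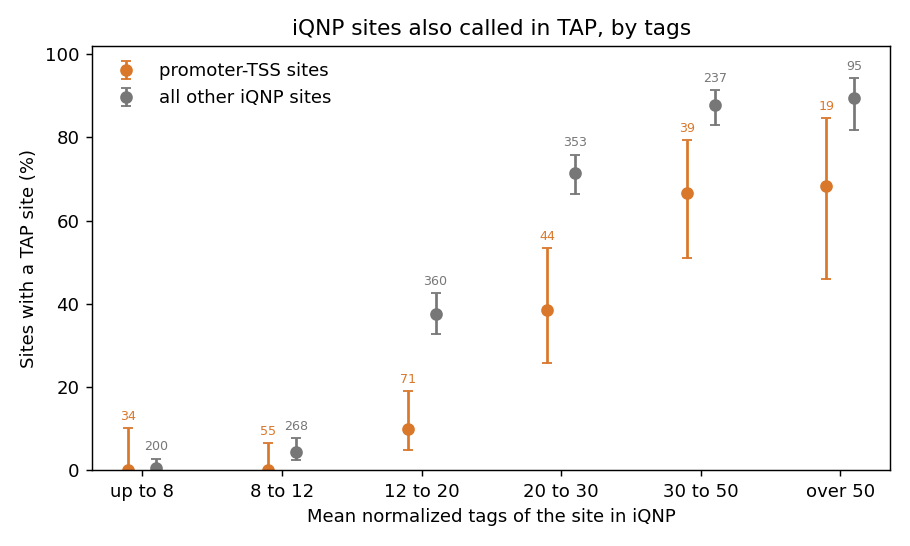
Share of iQNP sites with a TAP site by tags in iQNP. The horizontal axis is the class of mean normalized tags and the vertical axis the percentage with a TAP site, with 95% Wilson intervals as bars and the number of sites above them, for promoter-TSS sites and for all other iQNP sites. Promoter-TSS sites lie lower from 12 tags upwards, at 38.6% against 71.4% between 20 and 30 tags.

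The share also moved with the label and with the limit on enrichment. It was 32.8% over all iQNP sites up to 1 kb from a TSS, whatever their label, and 30.1% among promoter-TSS sites that both antibodies enriched at least 8-fold over input. Other distances between centres left it between 20.6% and 24.0%.

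The antibodies gave unequal tags, and the direction went with the presence of a TAP site. Across all iQNP sites the homemade antibodies gave more tags than the commercial one at 16.6%. At sites with other labels and a TAP site they did so at 17 of 693 (2.45%). At promoter-TSS sites with a TAP site they did so at a similar share, 1 of 63, Tnni3k. Commercial over homemade tags had a median log2 ratio of 0.61 there (quartiles 0.42 and 0.72), against 0.50 at those 693. At those without a TAP site the homemade antibodies gave more tags at 135 of 199 (67.8%), with a median log2 ratio of -0.17 (quartiles -0.39 and 0.12). Sites with other labels, outside CpG islands and farther than 1 kb from a TSS and without a TAP site had a median of 0.40, and the homemade antibodies were higher at 105 of 741.

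The levels with both antibodies still ran together: Spearman's rho across sites was 0.91 over the 63 and 0.85 over the 199, points that share the 2 libraries. The direction was the same at higher levels. Above 20 tags and without a TAP site, the homemade antibodies gave more tags at 39 of 46 promoter-TSS sites (median log2 ratio -0.26), against 14 of 140 sites with other labels (0.43). Among the sites without a TAP site, the 14 neuronal promoters had more commercial tags at 11, with a median of 0.33. The 87 general promoters had more homemade tags at 67, with a median of -0.23.

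Within the general groups, the homemade antibodies were higher at 17 of 20 sites of transcription and chromatin genes, 12 of 14 of splicing genes and 10 of 12 of mitochondrial genes. At ribosomal protein genes they were higher at 5 of 10. Each antibody was used once per condition, so a property of the antibody and one of the single library cannot be told apart.

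In TAP the homemade antibodies gave more tags at 25.4% of all sites and at 13 of the 64 promoter-TSS sites, and the median log2 ratio at those 64 was 0.29. In iQNP, sites with a CpG island label and no TAP site, which lay from the TSS at quartiles of -14590 and 3231 bp, had more homemade tags at 31 of 57 and a median of -0.07. Those with a TAP site had 0.60, and more commercial tags at 26 of 26. Sites with other labels within 1 kb of a TSS and no TAP site had more homemade tags at 5 of 22 and a median of 0.19.

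**Figure D3:**
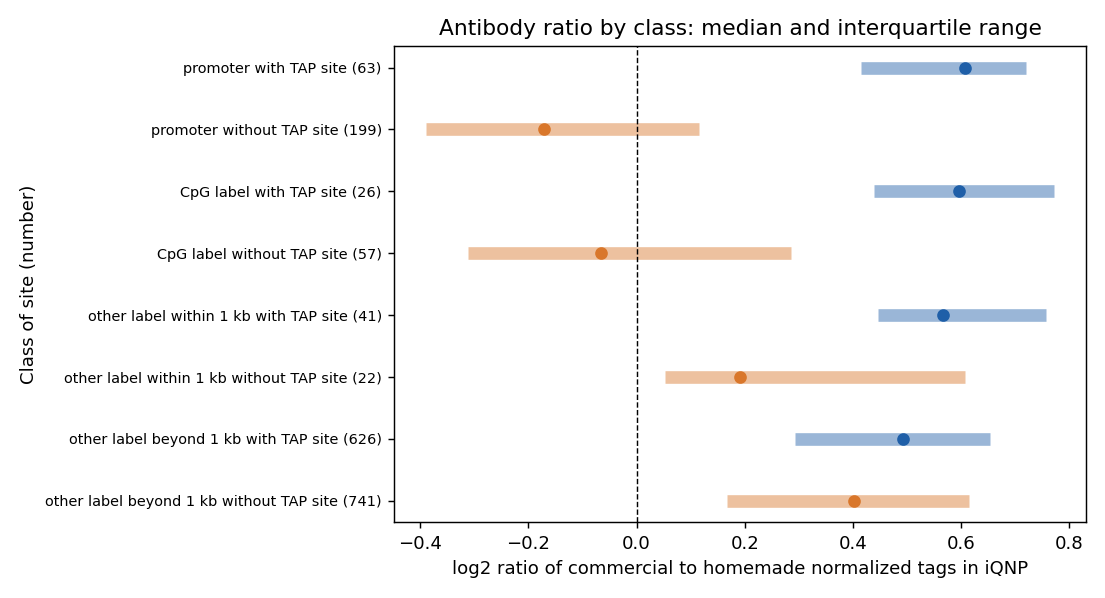
Log2 ratio of commercial to homemade normalized tags at iQNP sites. Points are medians and bars the interquartile ranges over the sites of a class, with the number of sites in brackets and 0 (dashed) for equal tags. Promoter-TSS sites with a TAP site centre on 0.61 and those without on -0.17, while sites with other labels beyond 1 kb centre on 0.49 and 0.40.

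Input was higher at promoter-TSS sites than elsewhere. The median of scaled input tags was 3.9 at the 262 sites and 2.9 at the 1513 others, and it was 3.4 at those with and 3.9 at those without a TAP site. Fold over input had a median of 13.5 at promoter-TSS sites, against 21.1 at other sites. It was 32.2 at sites with a TAP site and 10.3 at those without. The most input lay at Rbm39 and Rnf167, a ubiquitin ligase gene, with 11.7 tags each, followed by Mdh2 with 10.7 and by Supt5h and Slc39a3, a zinc transporter gene, with 10.2 each. Of these 5 sites only that of Slc39a3 had a TAP site. The least, 0.50 tags, was found at 8 sites, among them Cartpt, Kcnk12, Vip and Trim9. With so few input tags a fold, such as 228.2 at Cartpt, rests on the scaling of a near-empty input, and the part of input in the other differences was not tested.

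In iQNP the promoter-TSS sites were close to the other sites in level, with a median of 16.2 tags against 18.1 (log2 difference -0.16). For the commercial antibody that difference was -0.39 and for the homemade mix 0.08, so that its direction depends on the antibody. In TAP the 64 sites had a median of 18.4 tags against 12.3 for the others, a log2 difference of 0.58. Both antibodies gave this direction, at 0.61 and 0.56.

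The highest promoter-TSS sites of iQNP were Glra1, Scrt1, Vgf, LOC687565 and Hrh3. In TAP they were Cacng2, Scrt1, Vgf, Glra1 and NM_001277394. Cacng2 encodes stargazin, an auxiliary subunit of AMPA receptors. Its TAP site had 191.0 and 141.0 tags and lay 1000 bp before the TSS, while the paired iQNP site, at 316.1 and 191.0 tags and 1003 bp, was labelled intergenic. Chrnb2, a nicotinic receptor subunit, had its TAP site 98 bp after the TSS, labelled promoter-TSS, and its iQNP site 120 bp after it, labelled 5' UTR. Spire2 had the label in iQNP, at 96 bp after the TSS, and an exon label in TAP. In these 3 pairs the label changed between centres that lay within 50 bp of each other.

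**Figure D4:**
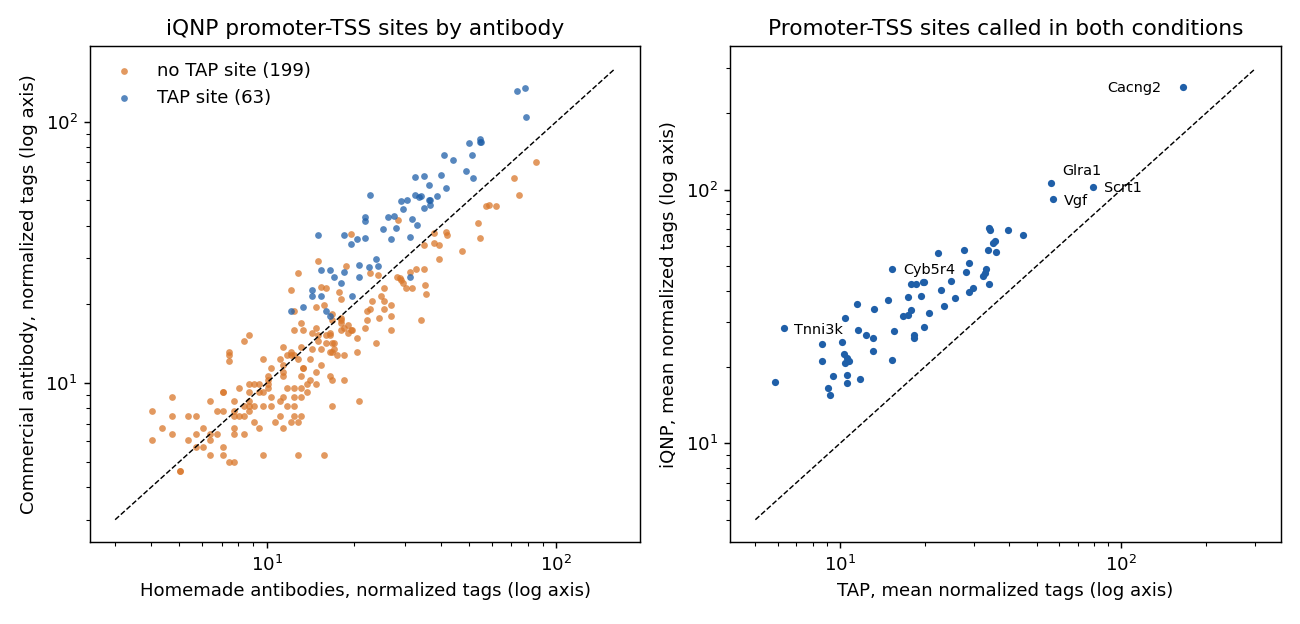
Normalized tags of promoter-TSS sites, on log axes with equal tags as a dashed line. On the left each point is an iQNP site, homemade against commercial antibodies, coloured by whether a TAP site was present: all but 1 of the 63 with a TAP site lie above the line, and 135 of the 199 without lie below it. On the right each point is 1 of 65 pairs by its mean in TAP and iQNP, and all lie above the line. Of all 756 shared sites, 754 had a higher mean in iQNP.

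At the promoter-TSS pairs every mean was higher in iQNP, as at nearly all shared sites. Of the 65 pairs with the label in at least 1 condition, 65 had a higher mean in iQNP and 64 were higher with each antibody. The exception was Scrt2, at -0.11 on the log2 scale with the homemade antibodies. Over all 756 shared sites these counts were 754 and 745. The median log2 ratio of normalized tags was 0.86 at these pairs (commercial 1.01, homemade 0.72). At the 691 pairs with other labels it was 1.07, and with fold over input in place of tags the medians were 0.88 and 0.80. The pairs are chosen for a call in TAP, which leaves out the sites without a call there.

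In a quasi-likelihood test by edgeR, scaled by the depths, 32 of the 65 pairs passed an adjusted p under 0.05 with more tags in iQNP (49.2%), against 68.4% of all 756 shared sites. None passed with more in TAP (0% of all shared sites), and none had an unadjusted p under 0.05 in that direction. With the antibody as a block for pairing, 62 of 65 passed, against 94.8% of all. The exceptions were Bsx (adjusted p = 0.062 by edgeR), Scrt1 (0.069) and Trim67 (0.084). DESeq2 with the depths called 34 (67.3% of all) and none in TAP, and a minimum of 20 tags left 31 of 61 (66.1% of all).

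These calls depend on the scaling. TMM normalization moves the median of all shared sites from 1.05 to -0.01, and relative to that 2 of 65 were higher in iQNP (5.16% of all) and 10 in TAP (6.75% of all). Those 10 were Cacng2, NM_001277394, Sez6, Nxph1, Celf6, Actl6b, Cartpt, Lrp11, Scrt1 and Trim67, and the 2 were Tnni3k and Cyb5r4. DESeq2 with its own size factors gave an adjusted p at 50 of the pairs, with 0 higher in iQNP (0.67% of all) and 1, Scrt1, higher in TAP (0.67% of all).

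The largest change with the depths was at Tnni3k, a kinase gene named for its partner cardiac troponin I, whose site lay 45 bp before the TSS. It had 25.5 and 31.2 tags in iQNP and 5.44 and 7.15 in TAP, with no overlap, and a log2 change of 2.16 (SE 0.42, adjusted p = 8.0e-05 by edgeR). Cyb5r4, a cytochrome b5 reductase gene, had 55.7 and 41.6 tags against 17.5 and 13.1, a log2 change of 1.67 (SE 0.43, adjusted p = 0.0011 by edgeR). Tnni3k and Cyb5r4 belong to no neuronal group.

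Cntnap5c, of the contactin-associated family, had 43.6 and 27.5 tags against 7.39 and 15.5, a log2 change of 1.63 (SE 0.41, adjusted p = 0.0010 by edgeR). Gucy2d, a guanylate cyclase gene, had 35.5 and 26.9 against 10.1 and 10.7, a log2 change of 1.58 (SE 0.41, adjusted p = 0.0011 by edgeR). Glra3, the alpha 3 subunit of the glycine receptor, had 18.8 and 16.1 against 6.22 and 5.56, a log2 change of 1.56 (SE 0.39, adjusted p = 0.00092 by edgeR). These 5 pairs were chosen for large changes in the same direction with both antibodies. That both iQNP libraries were above both TAP libraries at each follows largely from this choice. Of all 756 shared sites, 745 were higher in iQNP with each antibody, and the share without overlap was not counted.

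By gene group, 19 of 45 neuronal pairs passed with more tags in iQNP (42.2%, against 68.4% of all shared sites) and none with more in TAP, at a median log2 change of 0.82 with the depths, while TMM turned the median over all promoter pairs to -0.20. With the antibody as a block, 42 of the 45 passed, against 94.8% of all. Neuropeptide and transmitter genes passed at 3 of 4, vesicle and granule genes at 4 of 9, other neuron-enriched genes at 4 of 8, receptors and channels at 6 of 15, and adhesion genes at 2 of 5. Neural transcription factors passed at 0 of 4, with log2 changes from 0.37 at Scrt1 to 0.74 at Gsx1 and no unadjusted p under 0.05 by edgeR, but at 2 of 4 with the block, Gsx1 (adjusted p = 0.00021 by edgeR) and Scrt2 (0.0495). Of the genes in no group, 12 of 19 passed, and all 19 with the block, with a median of 1.00, and Mapk11 passed at 1.29. The strongest sites were not those with the largest change: Glra1 had a log2 change of 0.92 (SE 0.48, adjusted p = 0.074 by edgeR) and Vgf one of 0.68 (SE 0.47, adjusted p = 0.17 by edgeR). With the block both passed, at adjusted p = 2.2e-06 for Glra1 and 0.00023 for Vgf by edgeR, and DESeq2 with the depths called Glra1 (adjusted p = 0.031) and not Vgf (0.065).

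Sites with a TAP site were spread over a wider range before the start. The median distance of the 199 was 92 bp before the TSS (quartiles -180.5 and -46), and that of the 63 was 143 bp before it (-374.5 and -3.5). From 250 bp before to 50 bp after the TSS lay 159 of the 199 (79.9%; 73.8 to 84.9) and 32 of the 63 (50.8%; 38.8 to 62.7). Within 100 bp on either side of the TSS the shares were nearer to each other, at 105 of the 199 (52.8%) and 29 of the 63 (46.0%): 87 and 14 lay in the 100 bp before the start, and 18 and 15 in those after it. Between 250 and 1000 bp before the TSS lay 24 of the 63 and 32 of the 199. Sites before the TSS numbered 177 of 199 and 48 of 63.

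**Figure D5:**
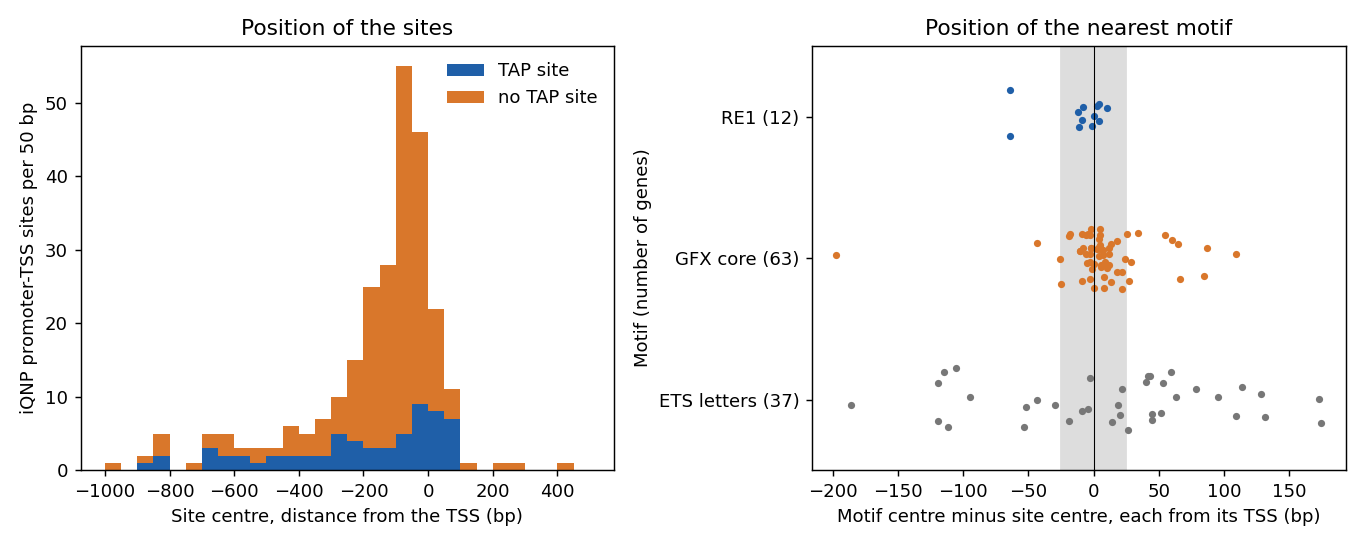
Positions of sites and motifs. On the left, iQNP promoter-TSS sites per 50 bp are stacked by whether a TAP site was present, against the distance of the site centre from the TSS in bp, negative before the start. On the right each point is a gene, placed by the position of the nearest motif minus that of the site in bp, with 25 bp to either side shaded: 10 of 12 for the RE1, 49 of 63 for CTCGCGAG (GFX core) and 8 of 37 for CCGGAAG (ETS letters) lie within it.

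No promoter-TSS site carried a CpG label. The detailed column reads promoter-TSS at all 262 and all 64 sites, so that it cannot tell whether a site lies in a CpG island. A CpG island label is found at 83 iQNP and 25 TAP sites with other labels. The ratio of observed to expected CpG had a median of 0.90 over the 171 matched genes of sites without a TAP site, against 0.43 over all reference genes. For sites with a TAP site only 48 of 63 matched (76.2%), too few for a comparison.

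The CTCGCGAG letters were held by 66 of the 171 matched genes without a TAP site (38.6%; 31.6 to 46.1), and more homemade tags were found at most of these. By group they were held by 42 of 79 general genes (53.2%; 42.3 to 63.8) and 22 of 97 in no group. Of genes with a TAP site and of neuronal genes under 80% had matched (76.2% and 75.4%), so that a check of letters is void for both, and here and below their counts stand without a comparison: 0 of 48 and 2 of 43. Those 2 were Scamp5 and Nptn, which encodes neuroplastin, both without a TAP site and both with more homemade tags. The 66 sites had a median of 17.6 tags and a median log2 antibody ratio of -0.29, with more homemade tags at 59. The 105 sites without a TAP site whose promoter lacked it had 11.2 tags and -0.08, with more homemade tags at 65. Median input was 4.85 against 3.4 tags, and its part in these differences was not tested.

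The letters, taken from a motif that the study found in these same peaks, also lay close to the sites. For 63 genes with 1 start and a site from 250 bp before to 50 bp after it, the nearest CTCGCGAG was within 25 bp of the site's centre at 49 (77.8%), with a median distance of 9 bp. At Rps6 both lay 72 bp before the start, at Npm1 51 and 48 bp, at Mms22l 91 and 89 bp, and at Psmd5 38 and 44 bp. At Rpl4 they were apart, at 243 and 46 bp. The distances come from starts on different builds, GRCr8 for the letters and rn4 for the sites, so that a start that moved between them adds to the difference. For CCGGAAG, letters bound by ETS factors, the same held at 8 of 37 sites (21.6%), with a median distance of 53.5 bp.

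The RE1 lay as close, at 10 of 12 sites (83.3%) and a median of 8.5 bp. At Fam163b both were 93 bp before the start, at Hrh3 95 and 99 bp, and at Vgf 10 and 2 bp. The exceptions were Vwc2l and Scamp5, each 64 bp apart. At Scamp5 the site lay 109 bp before the start, the RE1 173 bp and the CTCGCGAG 127 bp, and it was the 1 site of the 12 with an RE1 that had more homemade tags. The other 4 iQNP-alone sites with an RE1 had more commercial tags: Ttc9b 42.2 and 28.5, Celsr3 29.4 and 15.1, Lhfpl5 26.3 and 12.8, and RGD1310269 7.45 and 5.37. The RE1 was found at 5 of 171 matched genes without a TAP site and at 0 of 79 general genes, and, incompletely matched, at 7 of 48 with one. This window covers 300 bases at most, and 24 of the 63 sites with a TAP site lay before it.

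Other letters known from housekeeping promoters were less marked. Of the 171 matched genes without a TAP site, CCGGAAG was held by 47 (27.5%; 21.3 to 34.6), against 9.63% of all reference genes. GCGCATGC, letters bound by NRF1, was held by 14 of 171 (8.19%), against 2.77%. AAGATGGCG, letters bound by YY1, was held by 6 of 171, against 1.99%, and ACTACAATT by 2 of 171, against 0.433%. Over protein-coding reference genes alone the shares were 11.6%, 3.32%, 2.33% and 0.537%, in the same order. The promoters of the 171 genes had more CpG than those of all reference genes, and its part in these shares was not tested. Npm1 held both CTCGCGAG and GCGCATGC, and Psmd5 both CTCGCGAG and AAGATGGCG.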

How the data were processed

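The REST ChIP-seq libraries of both conditions of HCN cells were used. Per the submitters' processing notes and the methods, the authors mapped reads to rn4 by Bowtie2 and called peaks with HOMER against the input of the condition (Poisson p-value of at most 1e-04). Peaks of both antibodies were merged within 50 bp. The total tags are counts as deposited. The normalized tags are a signal that the authors brought to 10000000 tags per library, and the deposited input tags are a signal brought to the ChIP library's depth. The deposited fold over input is a ratio and comes with a p-value, and the focus ratio, a deposited fraction, was not used in a comparison. Promoter labels, genes and offsets from the TSS are those of the annotation that accompanies the peak lists, joined by the name of the merged peak. At 16 iQNP sites the annotated transcript was not the one nearest to the site, and 1 gene name reads as a date.

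Sites of both conditions were paired when their centres were within 50 bp. Total tags at the 756 pairs were compared in R (version 4.3.3) by edgeR's (version 4.0.16) quasi-likelihood test, with depths as library sizes and Benjamini-Hochberg adjustment over all pairs. No filter on low tags was used. With 2 libraries against 2, no exact two-sided permutation p can fall below 1 in 3, and p-values measure only the spread between libraries of different antibodies. The replicate number stands for the antibody, a shared reagent, and the deviations of same-numbered libraries had a correlation of 0.0445 across all pairs and of 0.213 across the 65 promoter-TSS pairs. A correlation across sites does not see an offset that they share. Commercial tags were higher at 62 of 63 paired iQNP promoter-TSS sites, and at 50 of their 63 TAP partners. At paired sites with other labels they were higher at 676 of 693 in iQNP and at 509 of 692 in TAP. The block takes up such an offset, and the fit without it counts it as spread. On simulated data for this comparison, 200 of 756 sites were changed by 2 on the log2 scale. The test recovered 99.0% of them, and 3.41% of its calls were unchanged sites. The 65 promoter-TSS pairs had a median log2 change of 0.86, and all had a higher mean in iQNP, as had 754 of all 756 shared sites. Recovery at that size, or with a shift that most sites share, was not tested.

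Shares have 95% Wilson intervals from scipy (version 1.17.1, Python 3.11.15). A count of 0 allows up to 3 counts. Motifs were searched in RefSeq promoters of GRCr8 (33469 promoters), and a gene held a motif if any of its promoters did. The members and lists were chosen with earlier results of these data known. Named genes are the 5 highest sites by tags in each condition, the 5 largest changes past the threshold, the 5 iQNP-alone sites with the most and the fewest tags, pairs whose labels differ, the highest and lowest of each gene group, genes the study discusses, the extremes of input, and genes with a printed motif. Of the genes that the rule names 1 is not reported here, and other members of the gene groups are listed as examples, chosen with their values known. The alternatives were other distances, labels and limits, TMM, DESeq2 (version 1.42.0), a replicate block, fold over input, either antibody alone, and other motif settings. RNA-seq was not analysed here.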

Additional observations from a re-analysis of the deposited data

How the results depend on the processing

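Of 42 values recomputed under other settings, 30 were rated the same, 7 moved, 2 reversed, 2 weaker and 1 stronger. A share was the same inside the main Wilson interval, and a log2 value within the standard deviation of the 2 antibodies' values. A count had to stay within a factor of 1.5 and a distance within 50 bp. Pairing within 200 bp returned the main values unchanged, so it adds little to the 30. Leaving out 1 antibody adds little as well, since each main log2 value lay between those of the 2 antibodies. Their standard deviation then covers both values nearly by construction, unless the sign changes. The share of iQNP promoter-TSS sites with a TAP site was 24.0%, and 30.1% with a fold over input of at least 8 and 32.8% for any site within 1 kb of a TSS. Pairs with more tags in iQNP numbered 32, but 2 with TMM and 0 with DESeq2's own size factors. With the antibody as a replicate block they numbered 62. The median log2 ratio at pairs was 0.86 with the depths, -0.20 with TMM, and between 0.72 and 1.01 with 1 antibody left out. The log2 difference between promoter-TSS and other sites was -0.16 in iQNP, -0.64 by fold over input, and between -0.39 without the homemade and 0.082 without the commercial antibody. In TAP it was 0.58, with 0.52 by fold over input, 0.50 for sites within 1 kb, and 0.56 to 0.61 with 1 antibody left out. The log2 difference between sites with and without a TAP site was 1.50, and 1.12 to 1.76 with 1 antibody left out. TCGCGAGA in place of CTCGCGAG, chosen after seeing the data, was held by 39.3% of matched genes. AAGATGGCG fell from 2.74% to 0.913% in the bases before the start alone. The cause of these changes was not tested.

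Each condition has 1 library per antibody, so no spread between replicates of an antibody is known. Tags in TAP at sites without a TAP call are unknown here, and how many fell short of the call was not tested. At the lowest levels, such as Rpl4, a site rests on few tags. Neuronal genes and genes with a TAP site matched fewer reference promoters (75.4% and 76.2%), so their motif counts are incomplete.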
